A study of Mus musculus with 40 samples.

Results

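Regions nearest olfactory and vomeronasal receptor genes were examined in chromatin immunoprecipitation sequencing of mouse small pre-B cells, B cell precursors that have left the cell cycle and recombine their light chain genes. A region was taken when the closest gene in the deposited annotation, within 200 kb, had a symbol beginning with Olfr or Vmn. The rule returned 13646 of the 863771 listed regions over 7 targets: 953 of 81440 for CTCF, 1124 of 61724 for NIPBL, 2067 of 88793 for RAD21, 2043 of 83467 for SMC3, 2642 of 127769 for WAPL, 2870 of 240561 for H3K27ac and 1947 of 180017 for H3K4me1. They lay nearest 1226 receptor symbols, of which 927 were Olfr, 176 Vmn1r and 123 Vmn2r.

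The cells were primary, flow-sorted from bone marrow, and fell into 3 conditions. The Brwd1 knockout (KO) lacked BRWD1, a bromodomain protein that reads acetylated histones and is known for its role in late B cell development. The ATPneg cells were wild-type small pre-B cells cultured in 126 nM oligomycin A, an inhibitor of mitochondrial ATP synthase, for 2 h. Wild-type (WT) cells were the reference for both; no culture is recorded for KO or WT cells, so the inhibitor and the culture cannot be told apart. KO and WT libraries covered all 7 targets, and ATPneg libraries covered NIPBL, RAD21, SMC3 and WAPL. Each group had 2 libraries, described as biological replicates, and every p-value below measures only the spread between 2 samples a group. ATPneg libraries entered as peak lists, without read counts.

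Olfactory receptors are odorant receptors and vomeronasal receptors detect pheromones, and both are encoded in large tandem arrays of similar genes. An olfactory sensory neuron expresses 1 allele of 1 olfactory receptor gene, while B cells express essentially none of the genes of either kind. In other tissues the arrays are packed as heterochromatin, poor in active histone marks. Cohesin, whose ring contains RAD21 and SMC3, is loaded with the help of NIPBL, extrudes chromatin loops using ATP, halts at sites bound by CTCF and is released by WAPL. H3K27ac marks active enhancers and promoters, and H3K4me1 marks enhancers more broadly.

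These promoters are shown because a region described below lay within 1 kb of their genes: a WAPL region lower in KO near Olfr1475, an H3K4me1 region lower in KO near Olfr651, the highest NIPBL, WAPL and H3K4me1 regions near a start at Olfr279, and the highest RAD21 region near a start at Olfr1513. Each runs 5′ to 3′ from 250 bases before to 50 bases after the annotated start on the strand of the gene (RefSeq, GRCm38.p6), at chr19:13480147-13480446 (minus strand), chr7:104552634-104552933 (plus), chr15:98497224-98497523 (plus) and chr14:52349995-52350294 (minus). Capitals mark CG pairs and TATAAA read on either strand. In the Olfr1475, Olfr279 and Olfr1513 windows the 50 bases after the annotated start open with ATG. The annotated start there may be that of the coding sequence, so these windows may not be promoters.
Olfr1475: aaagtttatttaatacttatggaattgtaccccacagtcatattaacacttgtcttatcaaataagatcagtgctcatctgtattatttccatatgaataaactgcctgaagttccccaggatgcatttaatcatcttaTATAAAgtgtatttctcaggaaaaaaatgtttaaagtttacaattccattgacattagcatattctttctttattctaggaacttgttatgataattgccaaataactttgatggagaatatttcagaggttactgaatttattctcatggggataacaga
Olfr651: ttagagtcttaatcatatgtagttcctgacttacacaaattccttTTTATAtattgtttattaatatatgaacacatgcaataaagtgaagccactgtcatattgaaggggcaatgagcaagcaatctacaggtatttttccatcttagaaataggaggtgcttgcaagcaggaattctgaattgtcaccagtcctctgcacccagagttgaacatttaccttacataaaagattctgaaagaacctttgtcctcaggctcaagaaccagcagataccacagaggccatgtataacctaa
Olfr279: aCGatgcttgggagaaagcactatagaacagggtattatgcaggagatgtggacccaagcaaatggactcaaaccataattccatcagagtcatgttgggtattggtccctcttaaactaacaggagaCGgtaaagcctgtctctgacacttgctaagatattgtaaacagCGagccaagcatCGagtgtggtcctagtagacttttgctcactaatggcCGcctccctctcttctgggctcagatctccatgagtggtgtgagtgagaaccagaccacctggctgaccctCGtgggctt
Olfr1513: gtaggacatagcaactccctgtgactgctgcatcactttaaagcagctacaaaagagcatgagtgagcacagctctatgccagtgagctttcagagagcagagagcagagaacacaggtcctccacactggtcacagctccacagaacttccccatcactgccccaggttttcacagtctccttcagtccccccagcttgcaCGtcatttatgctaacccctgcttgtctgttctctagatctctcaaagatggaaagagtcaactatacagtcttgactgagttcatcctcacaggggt
Olfr1475 and Olfr651 each held a TATAAA match and no CG pair, whereas Olfr279 held 6 CG pairs and Olfr1513 held 1, both without a TATAAA match. Because the regions are placed on mm9 and the promoters on GRCm38.p6, no region could be laid base for base on these windows.

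A TATAAA match and a lack of CG pairs were each more frequent in the family than over all promoters. Neither was found in most receptor promoters. RefSeq promoters were matched to 1027 of the 1226 symbols. Over all 1270 promoters of Olfr, Vmn1r and Vmn2r genes the median GC content was 35.7%, against 52.7% over all 32851 promoters in the table, and 30.9% held no CG pair, against 5.43%. TATAAA (or TTTATA) stood in 39.6% of receptor promoters, against 13.6% of all promoters. TAATTA, a core shared by homeodomain proteins such as LHX2, stood in 16.6%, against 5.29%. A part of the CTCF motif, CCA, NN, AG, NN and GGC in a run with N for any base, stood in 0.315%, against 2.43%. The motif of EBF proteins, which serve in both B cells and olfactory neurons, TCCC, NN and GGGA in a run, stood in 0.394%, against 0.904%. Motifs were read on both strands; TAATTA and the EBF motif are their own reverse complements. A match is a run of letters and was not tested as a binding site. How many receptor windows open at a coding start was not counted, so these shares may not describe promoters.

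Several facts about the libraries touch all results. Reads falling in regions numbered 3784506 to 30496715 per library; in KO cells NIPBL, SMC3 and RAD21 were sequenced to 3784506 to 7415143 such reads a library, against 15416715 to 24962590 in WT cells, so depth and genotype cannot be told apart for these targets. The 2 WT CTCF libraries differed, with 3880112 reads and 21429 peaks in the first and 17055094 reads and 67796 peaks in the second. The 2 KO RAD21 libraries differed in peaks, with 16283 in the first and 38712 in the second. The deposited regions cover every KO and WT peak, so a region listed because 1 group had a peak there tends to be higher in that group. The genotype field of the KO H3K27ac and H3K4me1 libraries reads wild type while their titles name the knockout; the titles were followed. H3K4me1 regions lay within 2 kb of 10 of 10 small pre-B genes, such as Cd79a, Pax5 and Rag1, with summed levels of 213 and 206 in normalised read counts (CPM) in KO cells, against 378 and 385 in WT cells. They lay near 1 of 6 genes of olfactory and vomeronasal neurons, such as Omp and Cnga2, with 1.34 and 1.22 CPM in KO cells, against 0.847 and 1.115 CPM in WT cells. T cell, myeloid and erythroid markers with such a region numbered 3, 3 and 2 of 5 each; their sums were 4.25 and 5.75 (T cell), 12.3 and 13.8 (myeloid) and 92.5 and 90.7 CPM (erythroid) in KO cells, against 4.42 and 4.04, 8.37 and 10.5, and 109 and 113 CPM in WT cells. By H3K27ac the small pre-B sum, over 7 of 10 genes, was 50.4 and 47.9 CPM in KO cells, against 49.9 and 51.7 CPM in WT cells. The erythroid sum was larger, at 95.8 and 102 CPM in KO cells, against 114 and 119 CPM in WT cells. The T cell sum was 3.42 and 3.20, against 3.44 and 3.05 CPM, and the myeloid sum 6.51 and 8.65, against 9.39 and 9.10 CPM. The neuron sum was 2.30 and 2.80, against 2.40 and 2.53 CPM. For both marks nearly all of the erythroid sum lay at Hbb-b1. The part of these other cells in the results was not tested. Nearly identical receptor genes can share reads, so a value at any 1 receptor gene is uncertain to that degree.

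The regions traced the receptor gene arrays. Joined where they lay within 1 Mb of each other, they formed 67 clusters that covered 67.3 Mb, and 35 clusters with over 100 regions each held 12454 of the 13646 regions. The cluster with the most regions ran over chr7:5099289-13830518 (mm9), from Vmn1r55 to Vmn1r89, with 70 symbols and 1382 regions. The olfactory array at chr2:85104627-90323666 held 177 symbols and 1225 regions, and the array at chr7:109611473-112509262, where the class I (fish-like) odorant receptors lie, held 98 symbols and 662 regions. Of the 1226 symbols, 306 were nearest to at least 1 region of all 7 targets and 123 to regions of a single target. Olfr1323 and Olfr1324 on chromosome X and Olfr1505 on chromosome 19 had the most regions among those, with 105, 92 and 92.

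WAPL, the factor that opens the cohesin ring, was lower in KO cells at more receptor regions than it was higher. Of the 2642 regions, 2589 passed the filter on low counts; 205 (7.92%) were higher and 1224 (47.3%) lower in KO cells at a Benjamini-Hochberg adjusted p below 0.05 in edgeR's quasi-likelihood test. Over all 126089 WAPL regions tested, 13.1% were higher and 27.6% lower. The median log2 fold change, KO over WT, was -0.95 over the receptor regions and 0.07 over all regions. Regions nearest Vmn1r genes were called lower in 56.2% of cases, those nearest Vmn2r genes in 47.7%, class I Olfr genes in 45.6% and class II Olfr genes in 44.2%. Scaling on the 25% of regions with the lowest counts (background scaling) gave 624 higher and 865 lower of the 2589 receptor regions. Over all 126089 regions it gave 48777 higher and 25231 lower, and the medians of receptor and all regions were -0.50 and 0.52. Scaling by library totals gave 358 higher and 1107 lower, against 27669 and 31674 of all regions. A further fit left out regions with dense input (over 100 reads per kb in the 2 genotype input columns together) and rescaled on the rest. It called 27 of 1448 receptor regions higher and 48 lower, against 2437 and 1798 of all 42199. The medians were 0.0024 over receptor regions and 0.018 over all, and lower calls were no more frequent among receptor regions than over all. Without KO replicate 1 the calls numbered 2 higher and 117 lower, and without KO replicate 2 they numbered 2 higher and 135 lower.

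The WAPL regions with the largest falls included 1 beside a gene start. The region at chr19:13555266-13556983, 579 bp from Olfr1475, had 1.76 and 2.01 CPM in KO cells, against 7.89 and 8.21 CPM in WT cells. Both KO libraries lay far below both WT libraries (log2 fold change -2.09 ± 0.20 SE, adjusted p = 0.00238, edgeR's quasi-likelihood test). The input libraries there held 27 reads in KO and 9 in WT, which is the opposite order, and the part of the input was not tested. At chr7:5157945-5160931, near Vmn1r56, WAPL had 4.18 and 4.26 CPM in KO cells, against 15.6 and 16.5 CPM in WT cells (log2 fold change -1.93 ± 0.14 SE, adjusted p = 0.00142). RAD21 and SMC3 regions with nearly the same ends were lower there too, with log2 fold changes of -1.84 ± 0.39 and -1.45 ± 0.19 (SE). Higher WAPL regions were short and were led by those near Olfr1371, Vmn2r117 and Olfr46, with log2 fold changes of 1.73, 1.56 and 1.51. Of the 205 higher regions 98.0% had dense input, against 4.33% of the 1224 lower regions.

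RAD21, the cleavable bridge of the cohesin ring, was also called lower more often than higher. Of 1964 receptor regions tested, 28 (1.43%) were higher and 609 (31.01%) lower in KO cells, against 2.3% and 21.1% of all 84996 regions tested. The median log2 fold change was -1.38 over the receptor regions and -0.39 over all. The lower calls turned on single libraries, as the last section gives. With background scaling there were 0 calls over receptor regions and over all regions. DESeq2 called 141 of 2067 receptor regions higher and 155 lower. Over all 88793 regions it called 11243 higher and 5322 lower. The receptor median minus that of all regions was -0.99 to -0.94 with edgeR's trimmed mean scaling, library totals, background scaling and DESeq2, but -0.50 without KO replicate 1, -1.47 and -1.55 without WT replicate 1 and 2, and -0.045 when regions with dense input were left out and the rest rescaled. At chr9:19379882-19380028, near Olfr854, RAD21 had 24.8 and 16.8 CPM in KO cells, against 156 and 244 CPM in WT cells (log2 fold change -3.26 ± 0.38 SE, adjusted p = 0.0433). Next came regions near Vmn1r139 and Olfr103, at -2.79 and -2.35. Higher regions were led by those near Olfr1441, Vmn2r49 and Olfr881, at 1.87, 1.67 and 1.57.

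SMC3, a structural subunit of the same ring, moved both ways. Of 1839 receptor regions tested, 115 (6.25%) were higher and 438 (23.8%) lower in KO cells, against 22.1% and 18.1% of all 77109 regions tested. Background scaling gave 167 higher and 242 lower, against 20895 and 7909 of all regions. DESeq2 gave 138 and 299 of 2043, against 18537 and 10056 of all 83467. The fit without dense input gave 63 and 154 of 1587, against 10425 and 5257 of all 53716. In that fit lower calls were about as frequent among receptor regions as over all, and higher calls were less frequent. Without KO replicate 1 the calls were 68 higher and 173 lower, and without KO replicate 2 they were 70 and 182. Class I Olfr regions were called higher in 16.5% of cases, class II Olfr regions in 7.10%, Vmn1r regions in 4.32% and Vmn2r regions in 3.62%.

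**Figure D1:**
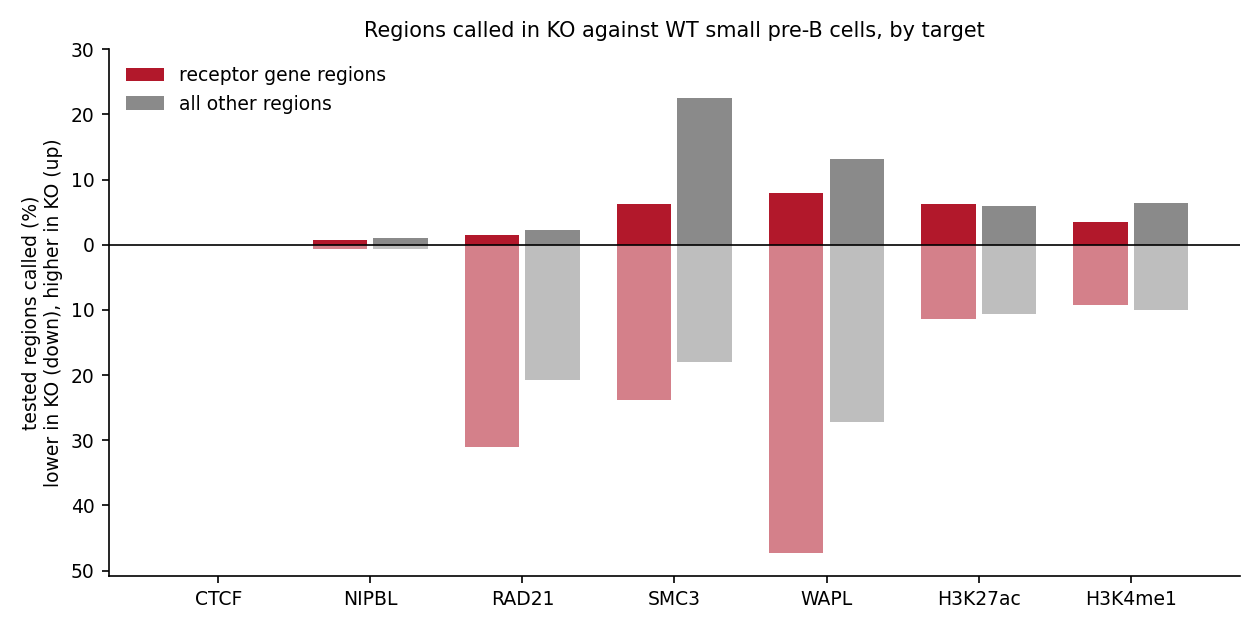
Percent of tested regions called higher (upward) and lower (downward) in KO against WT small pre-B cells for each target, for receptor gene regions and all other regions (edgeR's quasi-likelihood test, adjusted p below 0.05). WAPL was lower at 47.3% of receptor regions and 27.2% of other regions, and SMC3 was higher at 6.25% and 22.5%.

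The SMC3 regions that were higher in KO cells were narrow. At chr7:110068217-110068416, near Olfr572 in the class I array, SMC3 had 8.11 and 7.01 CPM in KO cells, against 0.392 and 0.313 CPM in WT cells (log2 fold change 4.38 ± 0.34 SE, adjusted p = 0.000575). Near Olfr325, at chr11:58401599-58401996, it had 11.0 and 10.4 CPM in KO cells, against 0.392 and 0.625 CPM in WT cells. Near Olfr94, at chr17:37340529-37340860, it had 14.1 and 11.99 CPM in KO cells, against 0.849 and 0.5002 CPM in WT cells. At all 3 the groups stood far apart, an SMC3 peak was called in both KO and both ATPneg libraries and in no WT library, and a CTCF peak overlapped in both KO libraries and in at least 1 WT library. The regions with the largest falls were near Olfr854, Olfr1009 and Olfr513. Near Olfr854 (chr9:19379846-19380034) SMC3 had 61.5 and 86.4 CPM in KO cells, against 1440 and 241 CPM in WT cells, so that the WT libraries differed widely from each other, at dense input of 72 KO and 67 WT reads (log2 fold change -3.51 ± 0.84 SE, adjusted p = 0.0212). There WAPL was higher, at 0.81 ± 0.22 (SE), and so was H3K27ac, with 4.72 and 5.50 CPM in KO cells, against 0.611 and 0.698 CPM in WT cells (log2 fold change 2.95 ± 0.21 SE).

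**Figure D2:**
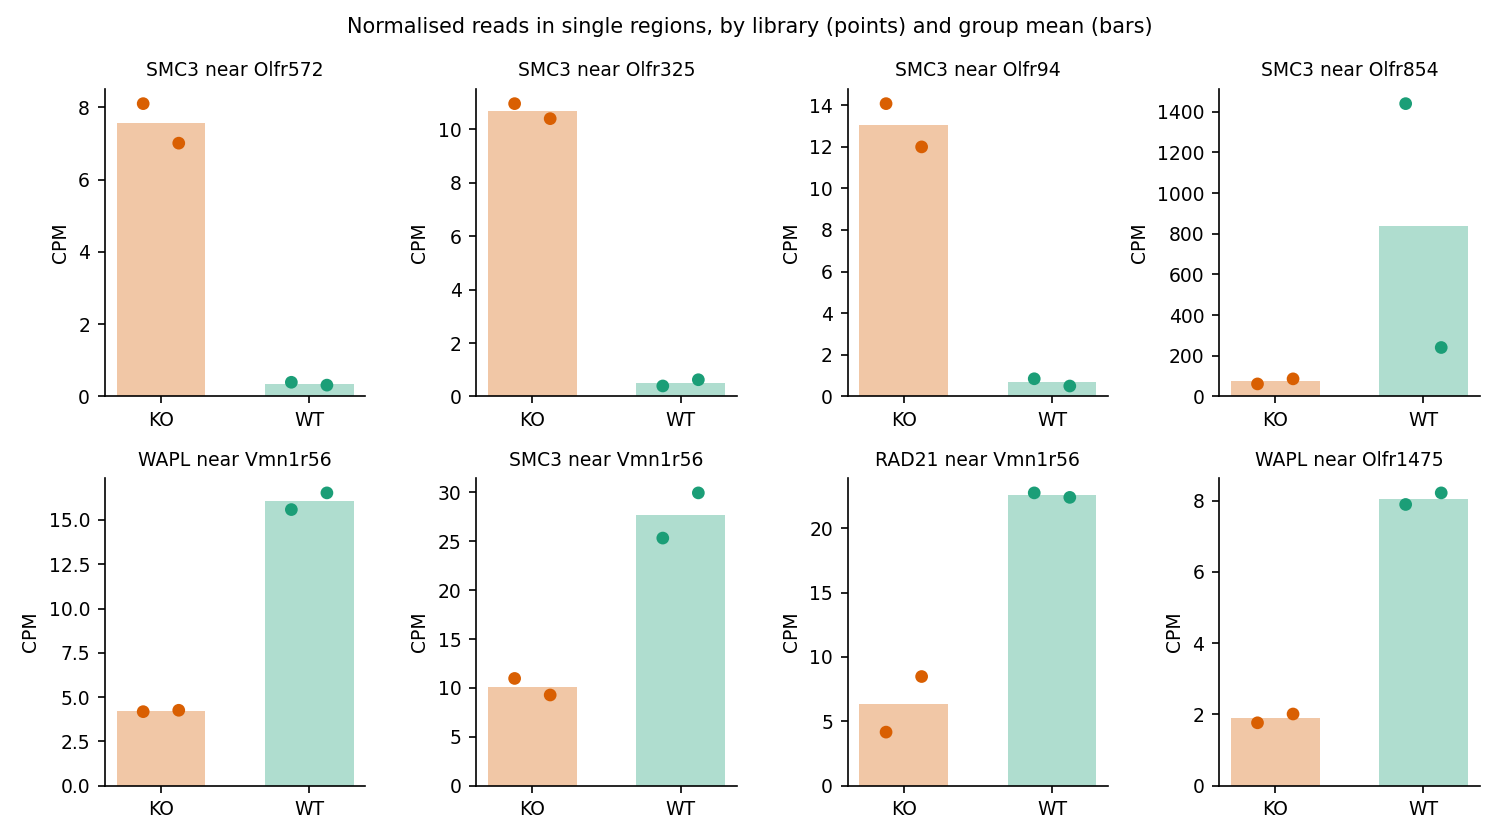
Normalised reads (CPM) in single regions in each KO and WT library (points) with group means (bars): SMC3 near Olfr572, Olfr325, Olfr94 and Olfr854, WAPL, SMC3 and RAD21 near Vmn1r56, and WAPL near Olfr1475. SMC3 near Olfr572 stood at 8.11 and 7.01 CPM in KO and 0.392 and 0.313 CPM in WT, while the Vmn1r56 and Olfr1475 regions were lower in KO.

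Calls of SMC3 sorted by CTCF. A WT CTCF peak, called in both WT libraries, lay at 61 of the 115 higher receptor regions (53.0%) and at 1 of the 438 lower ones; among other regions it lay at 69.2% of the higher ones. Fewer receptor regions than other regions had such a peak at all, 3.08% against 14.9% for SMC3 and 2.23% against 9.94% for RAD21. At the 63 SMC3 receptor regions with a WT CTCF peak, SMC3 peaks were called in both libraries at 39 in KO cells, at 61 in ATPneg cells and at 5 in WT cells. At the 12154 other SMC3 regions with such a peak the counts were 8358, 11667 and 554, which as shares are 68.8%, 96.0% and 4.56%, against 61.9%, 96.8% and 7.94% at the receptor regions. WT SMC3 libraries had few called peaks at CTCF sites inside and outside the arrays. For RAD21 the KO libraries disagreed, with peaks at 45 and 8 of the 46 receptor regions with a WT CTCF peak. There the ATPneg libraries had 29 and 46, and the WT libraries 4 and 5. At other RAD21 regions with such a peak the KO libraries had peaks at 97.5% and 9.37%.

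The lower regions were often wide. Regions over 2 kb numbered 217 for RAD21, 235 for SMC3, 219 for WAPL and 61 for NIPBL among the receptor regions, with lengths up to 6811 bp, and none of those of RAD21, SMC3 and WAPL lay at a WT CTCF peak. They made up 10.5% of RAD21, 11.5% of SMC3 and 8.29% of WAPL receptor regions, against 7.97%, 8.99% and 5.46% of other regions. The 3 sets lay in the same places, since 94.9% of the RAD21 ones overlapped a wide SMC3 region and 90.3% a wide WAPL region. In KO cells 190 of 217 were called lower for RAD21, 226 of 235 for SMC3 and 219 of 219 for WAPL, and none was called higher. These regions were nearly all listed through WT peaks, so a lower level in KO cells is partly fixed by how they were made.

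Set against input, the wide regions stood out in WT cells. The share of a library's reads that fell in the wide WAPL receptor regions was 0.92 and 0.98 times the input share in KO cells, against 3.26 and 3.12 times in WT cells. For RAD21 it was 1.08 and 1.57 times in KO cells, against 5.31 and 5.56 times in WT cells. For SMC3 it was 1.23 and 1.28 times in KO cells, against 2.98 and 3.95 times in WT cells. NIPBL, the loader, was at 1.08 and 1.08 times in KO cells, against 2.35 and 2.43 times in WT cells. KO libraries of these 4 targets lay between 0.92 and 1.57 times input there, and every WT library above 2 times. Since WT peaks put nearly all of these regions on the list, this order was partly fixed in advance. Wide regions elsewhere in the genome had 0.81 and 0.85 times for WAPL in KO cells, against 2.76 and 2.69 times in WT cells, and 1.06 and 0.97 times for RAD21 in KO cells, against 2.91 and 3.06 times in WT cells. The input reads moved too: over the receptor regions called lower, the KO input held 1.30, 1.25 and 1.28 times the reads of the WT input for RAD21, SMC3 and WAPL, and its part in the result was not tested.

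Neighbouring targets changed together at several wide loci. Around Olfr834 on chromosome 9, WAPL at chr9:18786101-18791464 had 8.23 and 7.77 CPM in KO cells, against 24.2 and 24.4 CPM in WT cells (log2 fold change -1.60 ± 0.11 SE). RAD21 over nearly the same interval was at -1.77 ± 0.42 (SE), and an SMC3 region 988 bp from the gene was at -1.22 ± 0.16 (SE). The NIPBL region at chr9:18786555-18788032 had 3.43 and 2.87 CPM in KO cells, against 7.72 and 8.21 CPM in WT cells, and was among the 3 NIPBL regions with the largest falls. The others were near Olfr1095 and Olfr692, at -1.11 ± 0.22 and -1.05 ± 0.23 (SE), and both coincided with RAD21, SMC3 and WAPL regions of 4766 to 6306 bp that were also lower.

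Receptor and other regions were also set side by side within classes of length and input. Among regions over 2 kb with sparse input, where nearly all were called, 100% of receptor regions and 99.9% of other regions were lower for WAPL, 87.96% and 89.6% for RAD21 and 96.2% and 96.2% for SMC3. In sparse regions of 200 to 500 bp 68.8% of receptor regions and 66.1% of other regions were lower for WAPL, and 20.1% and 16.1% for RAD21. Under 200 bp the WAPL shares stood further apart, at 42.1% of receptor regions and 29.7% of other regions. Where input was dense, the median log2 fold change was 0.31 over receptor regions and 0.35 over others for WAPL, and 0.65 and 0.67 for RAD21. Dense input was less frequent among receptor regions, at 43.2% against 66.2% for WAPL, 24.2% against 45.2% for RAD21 and 14.5% against 30.2% for SMC3. SMC3 was called higher at fewer receptor regions in several classes. In sparse regions 8.84% of receptor regions and 20.95% of other regions were higher under 200 bp, 6.11% and 36.5% at 200 to 500 bp, and 1.35% and 12.8% at 500 bp to 1 kb. In dense regions of 200 to 500 bp the shares were 39.3% and 64.1%. These shares were compared as descriptions, with no test of the difference.

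**Figure D3:**
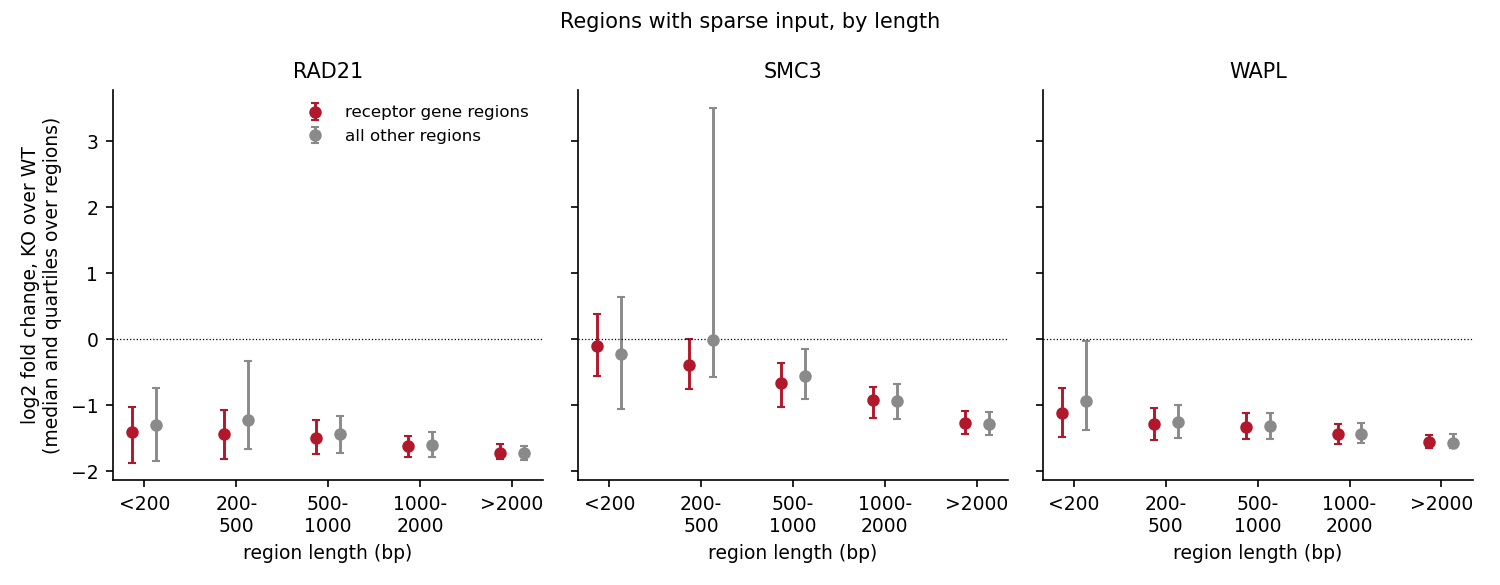
Log2 fold change, KO over WT, of RAD21, SMC3 and WAPL regions with sparse input, by region length in bp, as medians with quartiles, for receptor gene regions and other regions. Over receptor regions the medians were lower in each longer class, down to -1.72, -1.28 and -1.56 above 2 kb for RAD21, SMC3 and WAPL.

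NIPBL and CTCF gave few calls. For NIPBL, 8 of 1120 tested receptor regions were higher and 8 lower in KO cells, against 0.995% and 0.63% of all regions tested. Library-total scaling gave 5 higher and 144 lower, and background scaling 36 higher and 10 lower, so that the split is set by the scaling. The 8 higher regions had dense input and were led by those near Vmn1r238, Olfr1330 and Olfr459, at 1.59, 1.13 and 1.01. For CTCF none of 856 tested receptor regions was called by edgeR's quasi-likelihood test, against 0.00792% higher and 0.0317% lower over all regions tested; 87 had an unadjusted p below 0.05, and DESeq2 also called 0. With all libraries the median was -0.66 over receptor regions and -0.37 over all. Without WT CTCF replicate 1 the medians were -0.85 and -0.59, and without WT CTCF replicate 2 they were -0.21 and -0.017. The number of calls rose in both of these fits, over receptor regions and over all regions alike.

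The ATPneg cells could be compared by peaks. Of SMC3 peaks, 0.361% and 0.352% in the ATPneg libraries overlapped receptor regions, against 2.76% and 3.03% in the WT libraries; the KO libraries had 0.570% and 0.527%. For RAD21 the shares were 0.739% and 0.226% in ATPneg cells and 0.903% and 1.52% in KO cells, against 3.23% and 3.28% in WT cells. For WAPL they were 1.55% and 1.77% in ATPneg cells and 1.39% and 1.42% in KO cells, against 2.41% and 2.44% in WT cells. In each of these 3 targets every ATPneg and KO library lay below both WT libraries. NIPBL had 1.49% and 1.59% in ATPneg cells and 1.54% and 1.51% in KO cells, against 1.48% and 1.84% in WT cells, which overlap. The mean log2 ratio of the shares was -1.60 for ATPneg over WT (4 of 4 targets lower) and -0.78 for KO over WT (6 of 7 targets lower). These means, and those below, cover 4 targets for ATPneg but 7 for KO, with CTCF and both histone marks among them. Their sizes therefore cannot be compared between ATPneg and KO. Counted inside the whole receptor clusters, whether or not a region was listed, it was -0.83 for ATPneg (3 of 4 targets lower) and -0.54 for KO (6 of 7 lower). For KO, 4 of 7 targets were lower with peaks of at least 2 times the lowest score and 4 of 7 without replicate 2. Of ATPneg peaks, 32.7% to 96.1% per library overlapped any listed region, because the regions were built from KO and WT peaks; among the ATPneg peaks that did, the mean log2 ratio was -1.09 (3 of 4 targets lower).

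**Figure D4:**
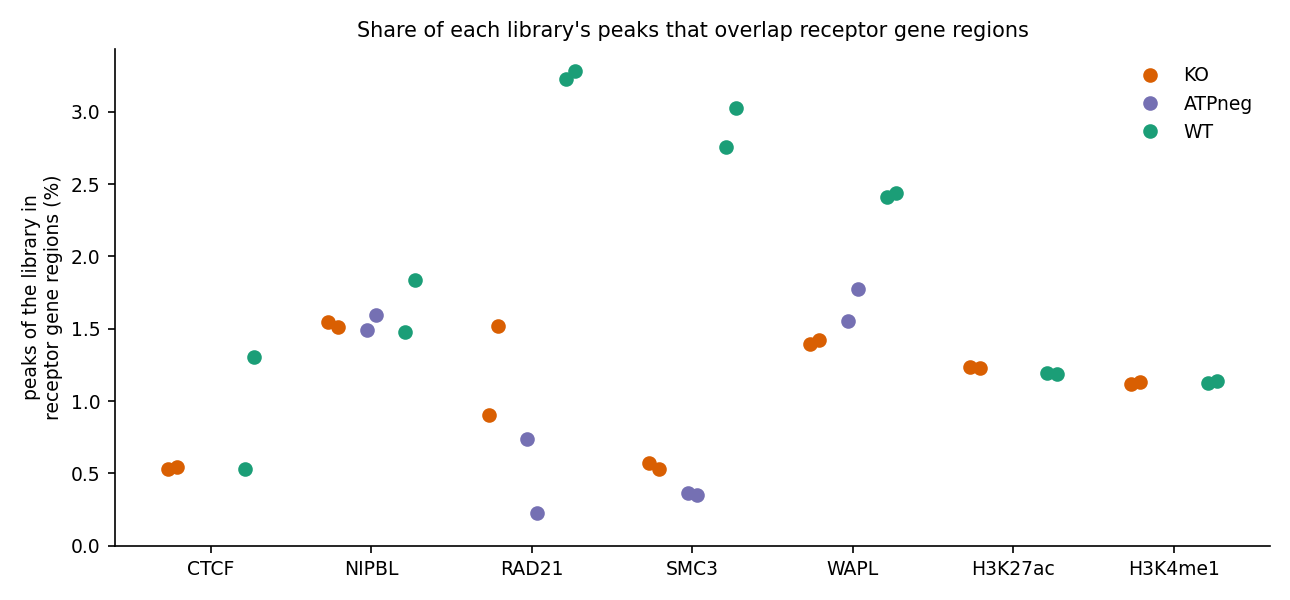
Percent of each library's peaks that overlap receptor gene regions, by target, for KO, ATPneg and WT libraries (1 point each). For RAD21, SMC3 and WAPL the KO and ATPneg points lie below both WT points, as at 0.361% and 0.352% (ATPneg) and 2.76% and 3.03% (WT) for SMC3.

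At single regions the peak calls must be read with the making of the list, since the wide regions came from WT peaks and ATPneg peaks had no part in it. No wide receptor region of RAD21, SMC3, WAPL or NIPBL had a peak in both ATPneg libraries, while 217 of 217, 231 of 235, 219 of 219 and 7 of 61 had a peak in both WT libraries. In KO cells peaks in both libraries stood at 0 of 217, 0 of 235, 3 of 219 and 0 of 61. The KO libraries stood apart for RAD21, with a peak at 1 wide region in replicate 1 and at 78 of 217 (35.9%) in replicate 2, and for WAPL, with 4 and 26 of 219. Of wide regions elsewhere, 0.275% and 39.2% had a peak in these RAD21 libraries, and 1.90% and 12.7% in these WAPL libraries. Peaks in both ATPneg libraries stood at 0.275% of them for RAD21, 0.205% for SMC3 and 0.0439% for WAPL. By contrast 84 of the 115 SMC3 receptor regions called higher in KO cells (73.0%) had peaks in both ATPneg libraries, against 1 of the 438 called lower. Among other SMC3 regions the shares were 84.6% of those called higher and 0.260% of those called lower. Class I Olfr regions had SMC3 peaks in both ATPneg libraries in 18.6% of cases, class II Olfr regions in 6.16%, Vmn1r regions in 3.81% and Vmn2r regions in 3.44%. Other SMC3 regions had such peaks in 20.6% of cases. KO and ATPneg cells were compared with the same WT libraries, so these 2 comparisons are not independent.

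The histone marks differed little over the family. For H3K27ac, 174 of 2789 tested receptor regions (6.24%) were higher and 317 (11.4%) lower in KO cells, against 5.9% and 10.6% of all 235173 regions tested, and the medians were 0.01 and 0.02. The split followed the scaling, with 262 higher and 188 lower by library totals and 102 higher and 635 lower by background scaling. For H3K4me1, 69 of 1943 were higher and 180 lower, against 6.44% and 9.98% of all regions tested, with medians of -0.05 and 0.00; library totals gave 112 higher and 120 lower, and background scaling 39 higher and 255 lower. The share of reads in receptor regions was 1.19% ± 0.00466 in KO cells and 1.196% ± 0.000910 in WT cells for H3K27ac, and 1.05% ± 0.000481 and 1.05% ± 0.000655 for H3K4me1 (SD, n = 2 each). For RAD21 it was 1.01% ± 0.0319 in KO cells and 1.47% ± 0.0602 in WT cells, and for SMC3 1.22% ± 0.000109 and 1.67% ± 0.170 (SD, n = 2 each). The mean log2 ratio of these shares, KO over WT, was -0.25, lower in 7 of 7 targets. By target it ran from -0.54 to -0.0016, and the shares of both histone marks were nearly equal in KO and WT cells. For CTCF the share was 0.822% and 0.778% in KO cells, against 0.900% and 1.15% in WT cells. A region listed through a peak of 1 group tends to be higher in that group, so the shares partly follow how the list was made.

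Single histone regions moved by more. The H3K4me1 region at chr7:111700951-111701066, 332 bp from Olfr651, had 1.34 and 1.28 CPM in KO cells, against 4.33 and 3.50 CPM in WT cells (log2 fold change -1.56 ± 0.22 SE, adjusted p = 8.64e-11, edgeR's quasi-likelihood test). H3K27ac at the same place had 2.96 and 3.11 CPM in KO cells, against 1.79 and 1.51 CPM in WT cells (log2 fold change 0.88 ± 0.19 SE, adjusted p = 0.000192). The 2 marks moved in opposite directions at this region, with no overlap between the groups in either. H3K27ac near Olfr150, at chr9:39550663-39550887, had 4.72 and 4.79 CPM in KO cells, against 9.96 and 11.7 CPM in WT cells (log2 fold change -1.19 ± 0.11 SE). Further H3K27ac regions by the same rule were higher near Vmn1r238 and Vmn1r77, at 2.69 and 2.66, and lower near Olfr242 and Vmn2r29, at -1.43 and -1.21. H3K4me1 regions were higher near Vmn1r2, Olfr521 and Vmn1r199, at 1.31, 0.89 and 0.83, and lower near Olfr444 and Vmn1r238, at -1.47 and -1.42.

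Few regions lay at gene starts. Within 1 kb of a receptor gene lay 172 H3K27ac regions (5.99%, against 2.38% of other regions), 109 H3K4me1, 66 WAPL, 34 RAD21, 31 NIPBL, 31 CTCF and 21 SMC3 regions. Of the 170 such H3K27ac regions tested 7 were higher and 13 lower in KO cells, against 5.9% and 10.6% over all regions, and of the 65 WAPL regions 8 were higher and 8 lower, against 13.1% and 27.6%. Olfr279, whose promoter is shown above, had the highest level near a start for NIPBL, WAPL and H3K4me1. Its H3K4me1 region had 39.4 and 39.5 CPM in KO cells, against 36.6 and 35.5 CPM in WT cells, a difference that missed the threshold (log2 fold change 0.13 ± 0.06 SE, adjusted p = 0.113). NIPBL there had 38.3 and 32.4 CPM in KO cells, against 33.5 and 37.7 CPM in WT cells, and the groups overlapped. H3K27ac was lower, with 29.8 and 31.1 CPM in KO cells, against 39.7 and 39.7 CPM in WT cells (log2 fold change -0.38 ± 0.05 SE). RAD21 838 bp from Olfr1513 had 15.8 and 16.7 CPM in KO cells, against 9.60 and 10.2 CPM in WT cells, which missed the threshold (log2 fold change 0.72 ± 0.22 SE, adjusted p = 0.0668). The highest levels of all fell where input was very dense, as near Vmn2r104, Olfr1015, Olfr646 and Olfr316.

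Medians below 0 were spread over the arrays for RAD21, SMC3 and WAPL. Of clusters with at least 20 tested regions, the median log2 fold change was below 0 in 29 of 29 for RAD21, 31 of 31 for SMC3 and 32 of 34 for WAPL. It was below 0 in 17 of 17 for CTCF, 16 of 19 for NIPBL, 24 of 30 for H3K4me1 and 14 of 35 for H3K27ac. These counts follow the scaling described above. Over all regions tested the median was itself below 0 for RAD21 (-0.39), SMC3 (-0.22) and CTCF (-0.37), and above 0 for the other targets. No such count was made outside the arrays, so the counts do not set the arrays apart. In the chromosome 7 cluster from Vmn1r55 to Vmn1r89, which also holds Vmn2r and class II Olfr genes, 142 of 287 tested WAPL regions were lower and 21 higher in KO cells. In the array that holds the class I receptors 52 of 115 were lower and 9 higher, beside 27.6% lower and 13.1% higher over all WAPL regions. SMC3 there was higher at 14 and lower at 13 of 86, beside 22.1% and 18.1% over all SMC3 regions. The regions nearest Olfr1323, picked for its number of regions, summed to 51.9 and 79.8 CPM of RAD21 in KO cells, against 195 and 189 CPM in WT cells. Of its 20 RAD21 regions, which were up to 5875 bp long, 16 were called lower, beside 21.1% over all RAD21 regions.

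**Figure D5:**
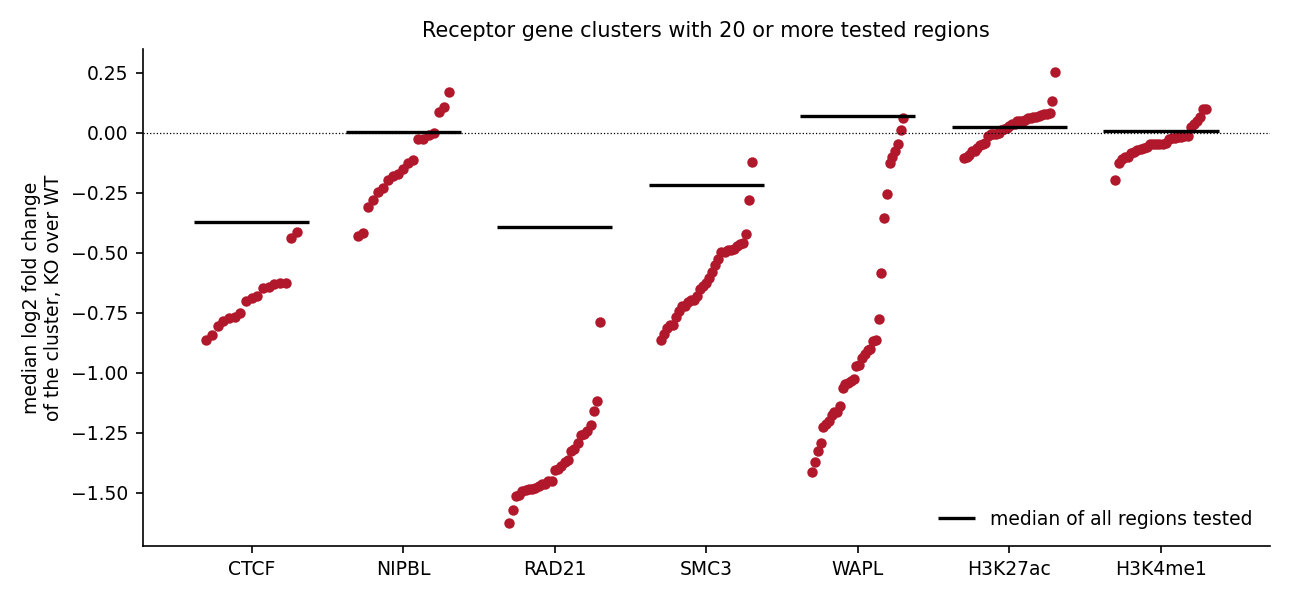
Median log2 fold change, KO over WT, of each receptor gene cluster with 20 or more tested regions, by target (points), with the median of all regions of the target (black line). For RAD21 and SMC3 every cluster lies below 0, and for WAPL 32 of 34 do, while H3K27ac lies below 0 in 14 of 35. The black line itself lies below 0 for RAD21, SMC3 and CTCF.

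Other genes of chemosensation were read from lists. Genes of olfactory signal transduction and receptor choice, among them Omp, the mature neuron marker, Adcy3, the odorant cyclase, and Lhx2, a regulator of receptor choice, had 74 tested SMC3 regions, of which 33 were higher and 6 lower in KO cells, and 130 WAPL regions, of which 30 were higher and 15 lower. For RAD21 3 were higher and 6 lower of 81. Over all regions 22.1% were higher and 18.1% lower for SMC3, 13.1% and 27.6% for WAPL, and 2.3% and 21.1% for RAD21, and the same shares stand beside the next lists. The Taar, Tas1r, Tas2r and Fpr genes, which encode trace amine, taste and formyl peptide receptors, had 82 SMC3 regions with 11 higher and 17 lower, 109 WAPL regions with 10 higher and 41 lower, and 86 RAD21 regions with 1 higher and 23 lower. The Ms4a genes, which include a set of olfactory receptors and the B cell gene Ms4a1, had 17 SMC3 regions with 7 higher and 2 lower and 19 WAPL regions with 5 higher and 4 lower.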

How the data were processed

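Chromatin immunoprecipitation was sequenced for 7 targets in 40 libraries, 2 per group. Per the submitters' processing notes the tools included BWA, Picard, MACS2, bedtools, featureCounts and edgeR, on mm9; their settings are not given in the sources used here. The authors deposited counts of reads per merged region, raw and with input subtracted, and a score per peak in the peak lists, which was read as the authors' own value and used only to filter peaks. The subtracted tables, per the file headers, held an annotation of the nearest genes and a normalised signal per library, which gave the region list; raw counts were joined by region name. Per-sample columns that matched no label numbered 2 and were not used.

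The members and gene lists were chosen with earlier results of these data known. Each target's whole table was filtered on low counts, scaled by trimmed mean of M values and tested with edgeR 4.0.16 (R 4.3.3) by its quasi-likelihood test, adjusted by Benjamini-Hochberg over all regions tested; a region was called at an adjusted p below 0.05. The procedure was tested on simulated data. Fold changes are KO over WT on the log2 scale, and CPM values are edgeR's. Alternatives were DESeq2 1.42.0, other scalings, no filter, input-subtracted counts, leaving out libraries and a replicate block. Peaks were assigned by an overlap of 1 bp. Shares of reads and peaks in member regions are given without p-values. Named regions were the 3 called higher and 3 called lower with the largest change, non-overlapping libraries and at least the median level, per target, the 2 with the highest level, and the highest within 1 kb of a gene; plus the 3 symbols with regions of the most targets. Standard errors are the absolute fold change over the square root of edgeR's F statistic. Tables were handled with Python 3.11.15, pandas 2.3.3 and numpy 2.4.6.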

Additional observations from a re-analysis of the deposited data

How the results depend on the processing

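Counts of receptor regions called in KO against WT cells moved by over 1.5 times under these alternatives; the causes were not tested. Leaving out 1 library gave 0 to 705 for CTCF, 0 to 1 for NIPBL, 0 to 1160 for RAD21, 241 to 793 for SMC3, 119 to 1612 for WAPL, 310 to 365 for H3K27ac and 144 to 170 for H3K4me1; the library left alone is then assumed to vary like the others. For NIPBL, library totals gave 149, background scaling 46, DESeq2 8, no dense-input regions 1 and input-subtracted counts 0. For RAD21, DESeq2 gave 296 (141 higher, 155 lower), and background scaling, no filter, no dense-input regions and input-subtracted counts gave 0 each. For SMC3, no dense-input regions gave 217 and input-subtracted counts 236. For WAPL, DESeq2 gave 698, no dense-input regions 75 (27 higher, 48 lower) and input-subtracted counts 715. For H3K27ac, background scaling gave 737 and DESeq2 137; for H3K4me1, DESeq2 gave 52. Replicate numbers did not pair the samples (correlation of deviations -0.22 to 0.04 over targets); with a replicate block NIPBL had 135 and RAD21 0. Without 1 replicate the mean log2 ratio of peak shares ranged over -0.85 to -0.68 for KO (7 targets) and -1.91 to -1.42 for ATPneg (4 targets). That of read shares ranged over -0.29 to -0.20. Of 56 named regions and 546 values, 396 kept direction and side of the threshold and 13 changed sign; 112 of the 401 values of the 41 called regions lost the call, 19 of them with input-subtracted counts. The sign changes were Vmn2r29 CTCF with input-subtracted counts (-0.33); Olfr279 NIPBL with DESeq2 (0.0050), with background scaling (0.14), and without 1 library (-0.14 to 0.11, above 0 without KO replicate 2, at 0.11, and WT replicate 2, at 0.06); Vmn2r17 RAD21 with background scaling (0.25) and without 1 library (-1.57 to 0.37, above 0 without KO replicate 1); Vmn1r2 SMC3 with background scaling (0.025); Olfr279 WAPL without 1 library (-0.22 to 0.28, below 0 without KO replicate 2, at -0.10, and WT replicate 1); and Olfr23, Vmn2r81 and Olfr1395 H3K27ac with background scaling (-0.12, -0.081, -0.16). The effect of depth was not tested.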
